A study of Mus musculus with 6 samples.

Results

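The 10 genes described here encode proteins that neutrophils, short-lived phagocytes made in the bone marrow, pack into their granules. They were chosen by name, with earlier results of these data known. Every probe set that the array annotation assigns to a member and to no other gene was taken. Each member had 1 such probe set, so the members are 10 of the 30618 probe sets measured and 10 of the 13817 genes that have a probe set of their own. Azurophil granules were represented by Mpo, Elane, Prtn3 and Ctsg, and specific and gelatinase granules by Ltf, Lcn2, Camp, Ngp, Olfm4 and Mmp8. All 10 were lower in the knee joint tissue of 2 Frzb-/- mice than in that of 3 wild-type mice, by 3.44-fold (Ngp) to 19.0-fold (Olfm4). A further mouse labelled Frzb-/- is shown apart, and its values lay near those of wild-type mice. With that mouse in the Frzb-/- group, 0 of 10 members passed the thresholds given below.

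Neutrophils develop in the bone marrow and make their granules one kind after another. The azurophil granules are filled at the promyelocyte stage with myeloperoxidase and serine proteases, the specific granules later, at the myelocyte and metamyelocyte stages, with lactoferrin and other antimicrobial proteins, and the gelatinase granules last. The messenger RNA of a granule protein is largely confined to the stage that fills its granule, so these genes are read mostly in immature cells of the marrow and little in circulating neutrophils.

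Gene expression was measured with Affymetrix mouse arrays in tibial articular cartilage and the bone beneath it. Each array held RNA from 1 joint, dissected as a piece that included trabeculae with their marrow and part of the growth plate. There were 2 Frzb-/- mice (animals 14 and 17), which lack the gene of frizzled-related protein, a secreted WNT antagonist, 1 further mouse labelled Frzb-/- (animal 6) that is shown apart, and 3 wild-type mice (animals 6-1, 8-1 and 9-1). All were C57Bl/6J males aged 6 weeks, and the Frzb-/- line had been back-crossed into that strain. In the study, a mouse labelled Frzb-/- proved heterozygous on re-genotyping after its array had grouped with the wild-type arrays. Its animal number is not given in the sources used here, and animal 6 was the array that stood with the wild-type ones. Over all probe sets, Pearson's r of animal 6 was 0.983 to 0.991 with wild-type arrays and 0.940 to 0.957 with animals 14 and 17, which had r = 0.988 with each other. The grouping into Frzb-/- and wild-type mice thus went with the arrays' own clustering, and the p-values below do not allow for that choice.

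Values are log2 expression values, on which a difference of 1 is a doubling. The targeted gene was read by a pair of probe sets. The brighter read Frzb at 7.02 and 6.42 in animals 14 and 17, at 6.93 in animal 6, and at 10.02, 10.79 and 10.16 in wild-type mice (log2 fold change -3.61, adjusted p = 0.000994), and the other at 5.22 and 4.92, at 5.34, and at 8.12, 8.96 and 8.08 in the same order (-3.31, adjusted p = 0.00105). Animal 6 therefore had Frzb values as low as those of animals 14 and 17, while its array as a whole stood with the wild-type arrays.

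The sequence just before the start of each member was searched because all members were lower together. Sequences of some members are shown because the azurophil and the specific or gelatinase genes held a short motif at different counts. That difference was not tested. The RefSeq promoter table of the mouse genome (build GRCm38.p6) held all 10 members, and the 250 bases before the start were searched on both strands for 7 motifs. TTGCNNAA, a form of the site of C/EBP factors, which drive granulocyte genes, stood before 0 of 4 azurophil genes and 4 of 6 specific or gelatinase genes (Ltf, Lcn2, Ngp and Mmp8), and before 10.8% of 27025 genes in all. GAGGAA, a core of sites of PU.1 and other ETS factors, stood before 4 of 4 azurophil genes and 4 of 6 of the others (Ltf, Lcn2, Olfm4 and Mmp8), and before 25.9% of all genes. Capitals mark these motifs, read on either strand (TTGCNNAA or TTNNGCAA, GAGGAA or TTCCTC), in the neighbouring genes Elane and Prtn3 and in the 4 genes with TTGCNNAA.
Elane (chr10:79886062-79886311, plus strand): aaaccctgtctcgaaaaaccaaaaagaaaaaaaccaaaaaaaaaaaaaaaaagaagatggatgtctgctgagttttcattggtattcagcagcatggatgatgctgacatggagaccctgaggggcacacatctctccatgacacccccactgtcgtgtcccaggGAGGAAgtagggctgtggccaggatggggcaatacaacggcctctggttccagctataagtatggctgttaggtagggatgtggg
Prtn3 (chr10:79879417-79879666, plus strand): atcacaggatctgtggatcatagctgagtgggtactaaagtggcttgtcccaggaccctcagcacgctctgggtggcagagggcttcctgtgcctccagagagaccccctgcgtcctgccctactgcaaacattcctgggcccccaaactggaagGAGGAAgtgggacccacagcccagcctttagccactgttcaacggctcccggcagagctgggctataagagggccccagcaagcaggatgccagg
Ltf (chr9:111019042-111019291, plus strand): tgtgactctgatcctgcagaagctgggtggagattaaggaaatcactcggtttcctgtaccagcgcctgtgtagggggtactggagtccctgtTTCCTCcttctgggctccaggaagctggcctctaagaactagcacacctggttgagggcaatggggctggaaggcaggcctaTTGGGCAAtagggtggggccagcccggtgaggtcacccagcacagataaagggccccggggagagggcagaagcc
Lcn2 (chr2:32387740-32387989, minus strand): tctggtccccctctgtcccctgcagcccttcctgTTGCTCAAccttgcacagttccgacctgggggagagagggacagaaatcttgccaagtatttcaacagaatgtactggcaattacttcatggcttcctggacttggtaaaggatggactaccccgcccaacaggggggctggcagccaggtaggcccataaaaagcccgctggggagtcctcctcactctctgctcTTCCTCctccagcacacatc
Ngp (chr9:110419558-110419807, plus strand): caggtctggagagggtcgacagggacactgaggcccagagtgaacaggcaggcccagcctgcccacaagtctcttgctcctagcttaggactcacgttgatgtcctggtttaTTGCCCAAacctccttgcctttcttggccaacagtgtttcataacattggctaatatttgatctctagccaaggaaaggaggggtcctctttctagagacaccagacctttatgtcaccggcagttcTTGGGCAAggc
Mmp8 (chr9:7558179-7558428, plus strand): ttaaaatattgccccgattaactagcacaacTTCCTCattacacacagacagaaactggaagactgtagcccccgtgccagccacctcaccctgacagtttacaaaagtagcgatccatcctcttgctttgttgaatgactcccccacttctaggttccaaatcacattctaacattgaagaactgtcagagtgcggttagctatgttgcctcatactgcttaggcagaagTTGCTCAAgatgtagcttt
Of the other motifs, TAACNG of MYB stood before Mpo, Elane and Mmp8 (22.3% of all genes) and AATCNCNG of GFI1 before 0 members (11.4%). TGTGGT of RUNX factors (15.9%) and TATAAA, a form of the TATA box (14.3%), were each matched before Ctsg alone. That TATAAA match began 237 bases before the start and was read on the other strand (TTTATA). Other forms of the box were not searched, so which members have a TATA box was not determined. A looser C/EBP form that overlaps the first, TTNNGNAA, stood before 0 of 4 azurophil genes and 5 of 6 others, and before 40.3% of all genes. The sample of 10 genes is small, and a match is a string of letters and not evidence that a factor binds there. Sites that differ from these strings were not searched, so a gene without a match may still hold a site of that factor.

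The azurophil members were all lower in the Frzb-/- mice, within a narrow range of folds. Mpo, the myeloperoxidase that makes hypochlorous acid, was at 11.38 and 10.40 in animals 14 and 17, against 12.89, 13.30 and 13.34 in wild-type mice 6-1, 8-1 and 9-1. Elane, the neutrophil elastase, was at 9.94 and 9.37 in Frzb-/- mice, against 12.03, 12.54 and 12.43 in wild-type mice. In both genes every Frzb-/- value lay below every wild-type value, and the groups were set apart by more than the spread within either of them. Prtn3, proteinase 3, was at 10.11 and 9.30 in Frzb-/- mice, against 11.82, 12.10 and 12.07 in wild-type mice. Ctsg, cathepsin G, was at 9.23 and 8.34 in Frzb-/- mice, against 11.02, 11.35 and 11.35 in wild-type mice. Here too the groups did not overlap, animal 17 was the lowest, and wild-type mouse 6-1 was the lowest of its group. The log2 fold changes by limma's moderated test were -2.28 for Mpo (standard error 0.29, adjusted p = 0.00265), -2.68 for Elane (standard error 0.22, adjusted p = 0.00104), -2.29 for Prtn3 (standard error 0.24, adjusted p = 0.00148) and -2.46 for Ctsg (standard error 0.26, adjusted p = 0.00157). As folds, Mpo was 4.86-fold lower (95% limits 3.01 to 7.86) and Elane 6.39-fold lower (95% limits 4.45 to 9.18).

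The members of the specific and gelatinase class were lower as well, over a wider range of folds. Ltf, the iron-binding lactoferrin, was at 10.84 and 10.58 in animals 14 and 17, against 12.91, 13.61 and 13.65 in wild-type mice 6-1, 8-1 and 9-1. Lcn2, lipocalin 2, which binds bacterial siderophores, was at 10.06 and 10.10 in Frzb-/- mice, against 12.44, 13.28 and 13.25 in wild-type mice. The Frzb-/- mice lay close together in both iron-withholding proteins, and wild-type mouse 6-1 lay well below the other two. Camp, the mouse cathelicidin precursor, was at 12.12 and 11.68 in Frzb-/- mice, against 13.68, 14.02 and 14.02 in wild-type mice. Ngp, neutrophilic granule protein, a relative of cathelicidins and cystatins, was at 12.62 and 12.33 in Frzb-/- mice, against 13.98, 14.34 and 14.44 in wild-type mice. Both were lower by less than the other members, again without overlap. Olfm4, olfactomedin 4, which is made by a subset of neutrophils, was at 4.58 and 3.75 in Frzb-/- mice, against 7.76, 9.02 and 8.47 in wild-type mice. Mmp8, the neutrophil collagenase, was at 7.78 and 7.50 in Frzb-/- mice, against 10.46, 11.59 and 11.47 in wild-type mice. These were the members that were lowered most, and also those with the widest spread among wild-type mice (ranges of 1.27 and 1.14).

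By limma the log2 fold changes were -2.68 for Ltf (standard error 0.24, adjusted p = 0.00112), -2.91 for Lcn2 (standard error 0.26, adjusted p = 0.00110), -2.01 for Camp (standard error 0.18, adjusted p = 0.00113), -1.78 for Ngp (standard error 0.18, adjusted p = 0.00129), -4.25 for Olfm4 (standard error 0.39, adjusted p = 0.00118) and -3.53 for Mmp8 (standard error 0.33, adjusted p = 0.00120). Lcn2 was 7.51-fold lower (95% limits 4.90 to 11.5), Mmp8 11.6-fold lower (95% limits 6.69 to 20.0) and Ngp 3.44-fold lower (95% limits 2.57 to 4.59). Of all 30618 probe sets, Olfm4 had the lowest log2 fold change, and Mmp8 stood at rank 7 from the lowest. Both already stood among the most lowered genes that the study listed from these arrays. The table holds no detection calls, so it was not determined whether Olfm4 was above background in animals 14 and 17.

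**Figure D1:**
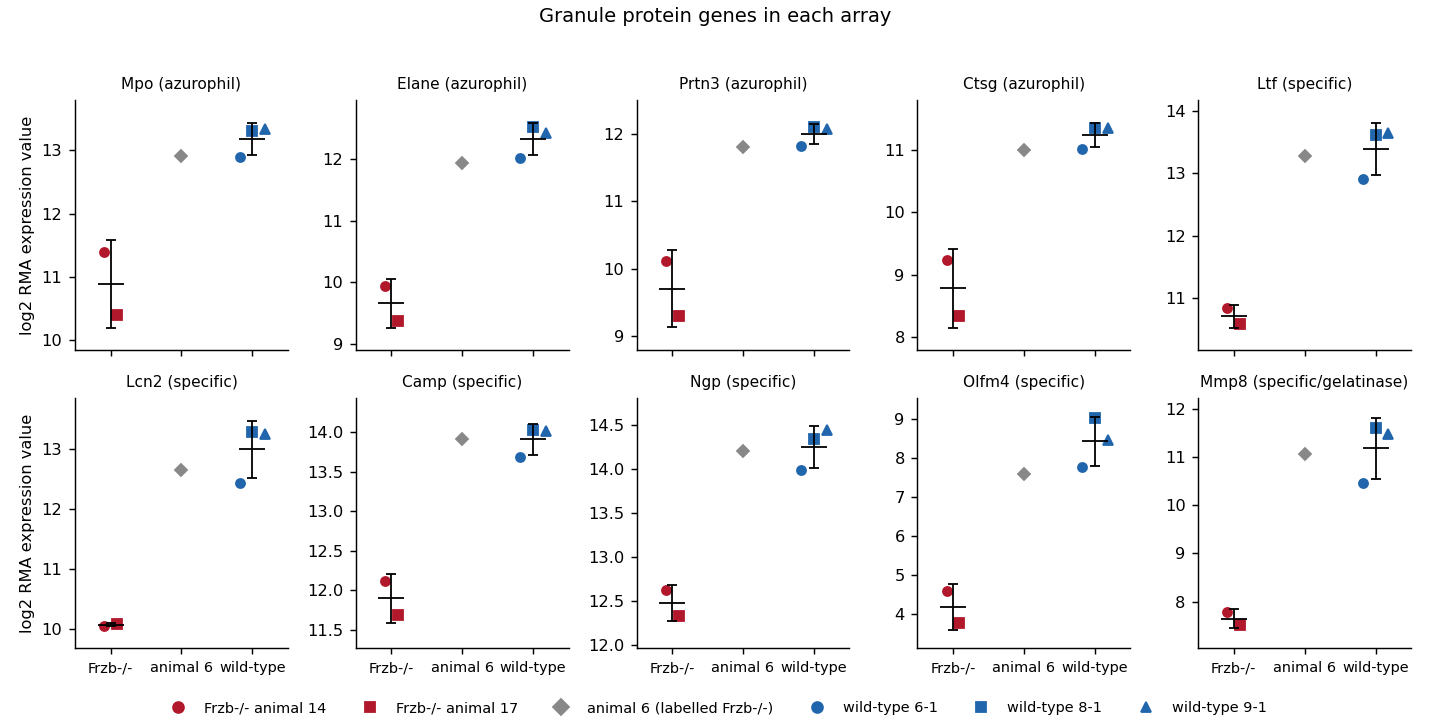
Log2 RMA expression value of each granule gene in each array, 1 panel per gene and each with its own axis range (Frzb-/- animals 14 and 17 in red, animal 6 in grey, wild-type mice in blue). Lines and bars are the group mean and SD. In all 10 panels both Frzb-/- arrays lie below all wild-type arrays, and animal 6 lies above both Frzb-/- arrays.

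A probe set was called when its Benjamini-Hochberg adjusted p over all probe sets was under 0.01 and its absolute log2 fold change above 1. All 10 members were called lower, where limma called 5.09% of all probe sets lower and 2.34% higher. Both Frzb-/- arrays lay below all wild-type arrays in 10 of 10 members and in 28.1% of all probe sets, and the gap between the groups was 1.37 to 3.17 on the log2 scale. The median log2 fold change was -2.57 over the members and 0.017 over all probe sets. It was -2.37 over the 4 azurophil genes (-2.68 to -2.28) and -2.80 over the 6 others (-4.25 to -1.78), and the range of the others encloses that of the azurophil genes. With so few mice the calls depended on single arrays. Without animal 17, 4 of 10 members were called (Elane, Prtn3, Ctsg and Camp, beside 1.09% of all probe sets lower), with adjusted p at most 0.0130 for the remaining members and every direction kept. Without wild-type mouse 8-1 all but Mpo were called (adjusted p = 0.0148, beside 2.21% of probe sets lower). All 10 were called without animal 14, wild-type mouse 6-1 or wild-type mouse 9-1, beside 4.92%, 4.03% and 4.28% of probe sets lower.

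**Figure D2:**
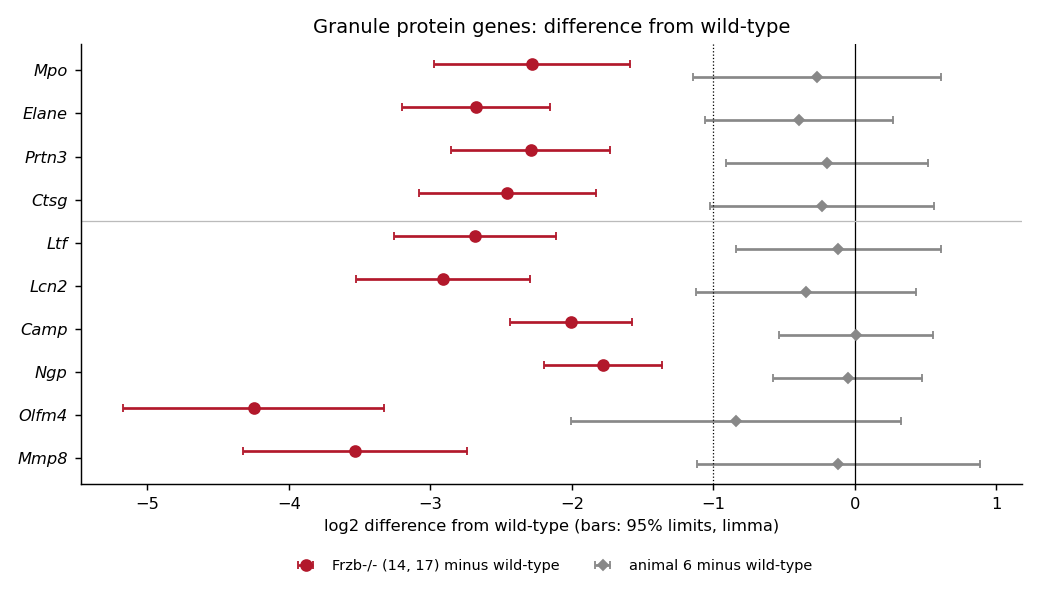
Log2 difference from wild-type of each granule gene, for the Frzb-/- animals 14 and 17 together (red) and for animal 6 (grey), with 95% limits from limma. The Frzb-/- differences run from -4.25 (Olfm4) to -1.78 (Ngp) with limits wholly below -1, and the limits of animal 6 include 0 for every gene.

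The Frzb-/- mice differed from each other in most members. Animal 17 was below animal 14 in 9 of 10 members, and in 54.8% of all probe sets. The difference of animal 17 minus animal 14 was -0.98 to -0.57 in azurophil genes, with a median of -0.85, and -0.83 (Olfm4) to 0.03 (Lcn2) in specific and gelatinase genes, with a median of -0.28, so the ranges of the classes overlap. Relative to the wild-type mean, the median azurophil gene stood at -1.95 in animal 14 and at -2.84 in animal 17, and the median specific or gelatinase gene at -2.74 in animal 14 and at -2.85 in animal 17. Whether the granule classes differed was not tested. Among wild-type mice 6-1 was the lowest in 10 of 10 members and in 37.7% of all probe sets. Mouse 6-1 lay below the mean of the other two by 0.26 to 0.45 in azurophil genes and by 0.34 to 1.08 in specific and gelatinase genes. Without mouse 6-1 all 10 members were called lower, and the medians were -2.50 and -3.06.

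**Figure D3:**
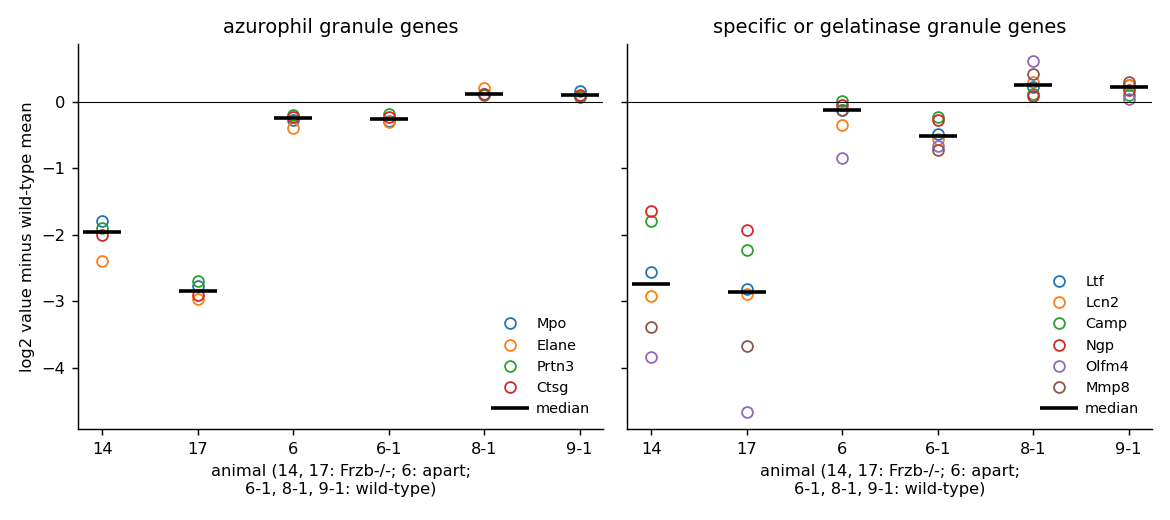
Log2 value minus the wild-type mean of each granule gene in each array, azurophil genes on the left and specific or gelatinase genes on the right, with the median of each class as a bar. The azurophil median is -1.95 in animal 14 and -2.84 in animal 17, the other median -2.74 and -2.85, and animal 6 stands at -0.25 and -0.12.

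Animal 6 had granule gene values near those of the wild-type mice. It lay within the wild-type range in 6 of 10 members, and in 42.9% of all probe sets, and below that range in the other 4, which were Elane, Prtn3, Ctsg and Olfm4. Mpo was at 12.91 in animal 6, where wild-type mouse 6-1 had 12.89. Elane was at 11.94 in animal 6, against 12.03 in wild-type mouse 6-1, the lowest of its group. Its distance from the wild-type mean was -0.84 for Olfm4 and between -0.40 and 0.01 for the other members. The limits of that distance were -1.14 to 0.61 for Mpo and -2.01 to 0.32 for Olfm4, so these limits include differences larger than 1. With animal 6 fitted as a separate group, limma called 0 of 10 members against wild-type (smallest adjusted p = 0.772, 0 at an unadjusted p under 0.05), where it called 0% of all probe sets, Frzb included, and 7.18% had an unadjusted p under 0.05. Against animals 14 and 17, animal 6 had the higher value in all 10 members, by a median of 2.25, and 8 were called higher, where 3.2% of all probe sets were called higher. The exceptions were Mpo (2.02, adjusted p = 0.0184) and Ctsg (2.23, adjusted p = 0.0104).

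With all 3 labelled mice as 1 group, the log2 fold changes over wild-type were -3.11 (Olfm4) to -1.20 (Ngp), and 0 of 10 members were called (adjusted p = 0.428 for each, all 10 at an unadjusted p under 0.05). In that fit limma called 0% of all probe sets, and 3.74% were lower at an unadjusted p under 0.05. The result on the members therefore rests on setting animal 6 apart.

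Other products of neutrophils were also lower, though not all proteins of the same granules. Of 40 further genes in 5 neutrophil lists, 23 were called lower, where by the brightest probe set 6.02% of all genes were called lower and 3.03% higher. The count was 14 without animal 14, 5 without animal 17 and 8 without wild-type mouse 8-1. In RNA of a whole tissue, fewer cells of a type and less RNA per cell cannot be told apart.

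Among other azurophil and lysosomal proteins 1 of 4 measured was lower, with a median log2 fold change of -0.23. That was Lyz2, the lysozyme of myeloid cells, at 12.29 and 12.20 in Frzb-/- mice, against 13.16, 13.62 and 13.53 in wild-type mice (-1.19, adjusted p = 0.00324), a call that was lost without animal 14, animal 17 or wild-type mouse 8-1. Man2b1 and Arsb, lysosomal hydrolases that most cells express, had log2 fold changes of -0.37 and -0.08 by their brightest probe sets and were not called. Of the 2 probe sets of Man2b1, however, the dimmer one was called lower. Among genes that process, store or inhibit the granule proteases 4 of 6 were lower and 1 higher (2 lower without animal 14 or wild-type mouse 8-1, 1 lower and 0 higher without animal 17). The lower genes were the elastase inhibitor Slpi (-2.36), the cathepsin C inhibitor Cst7 (-2.03), the elastase inhibitor Serpinb1a (-1.26) and Srgn (-1.17), the proteoglycan core that retains proteases in granules. Serpina3n, a secreted serine protease inhibitor, was higher, at 8.25 in both Frzb-/- mice, against 6.91, 7.00 and 6.99 in wild-type mice (1.28). Ctsc, the enzyme that activates Elane, Prtn3 and Ctsg and that other cells make too, was not called (0.38, adjusted p = 0.0944).

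Of 16 other genes of specific, gelatinase and secretory granules 10 were lower, with a median of -1.50 (6 without animal 14, 1 without animal 17, 5 without wild-type mouse 8-1). Cd177, a surface glycoprotein of neutrophils, was at 8.04 and 7.79 in Frzb-/- mice, against 10.55, 11.31 and 11.41 in wild-type mice (-3.17, adjusted p = 0.00105). Fpr2, a receptor for formylated peptides, was lower (-2.96), as was Chil3, a chitinase-like protein of neutrophils and macrophages (-2.50). Mmp9, the gelatinase that names the gelatinase granule, was at 12.92 and 12.79 in Frzb-/- mice, against 12.93, 13.04 and 12.90 in wild-type mice (-0.10, adjusted p = 0.581). Mmp9 is also made by osteoclasts, and the osteoclast genes, with Mmp9 counted among them, are given below.

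Of 8 transcription factors of granulocytes 2 were lower, with a median of -0.71 (0 without wild-type mouse 8-1). Myb, which maintains progenitors, was at 9.01 and 7.78 in Frzb-/- mice, against 11.16, 11.28 and 11.27 in wild-type mice (-2.84, adjusted p = 0.00183). Gfi1, a repressor needed for neutrophil development, was at 5.79 and 4.80 in Frzb-/- mice, against 7.47, 7.80 and 7.84 in wild-type mice (-2.41, adjusted p = 0.00205). Spi1, which encodes PU.1, passed the p threshold and not the fold (-0.94, adjusted p = 0.00988). Cebpb, a C/EBP factor of many cell types, had a log2 fold change of -0.88 and was not called (adjusted p = 0.0255). Cebpd (-0.54), Klf5 (-0.11), Runx1 (0.27) and Cebpa (0.47) were not called either. Of 6 genes of maturing neutrophils all 6 were lower (3 without animal 14, 1 without animal 17 or wild-type mouse 8-1). They included the receptors Csf3r for G-CSF (-2.80) and Cxcr2 for chemokines (-1.86), and S100a9 (-1.67) and S100a8 (-1.47), the subunits of calprotectin.

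**Figure D4:**
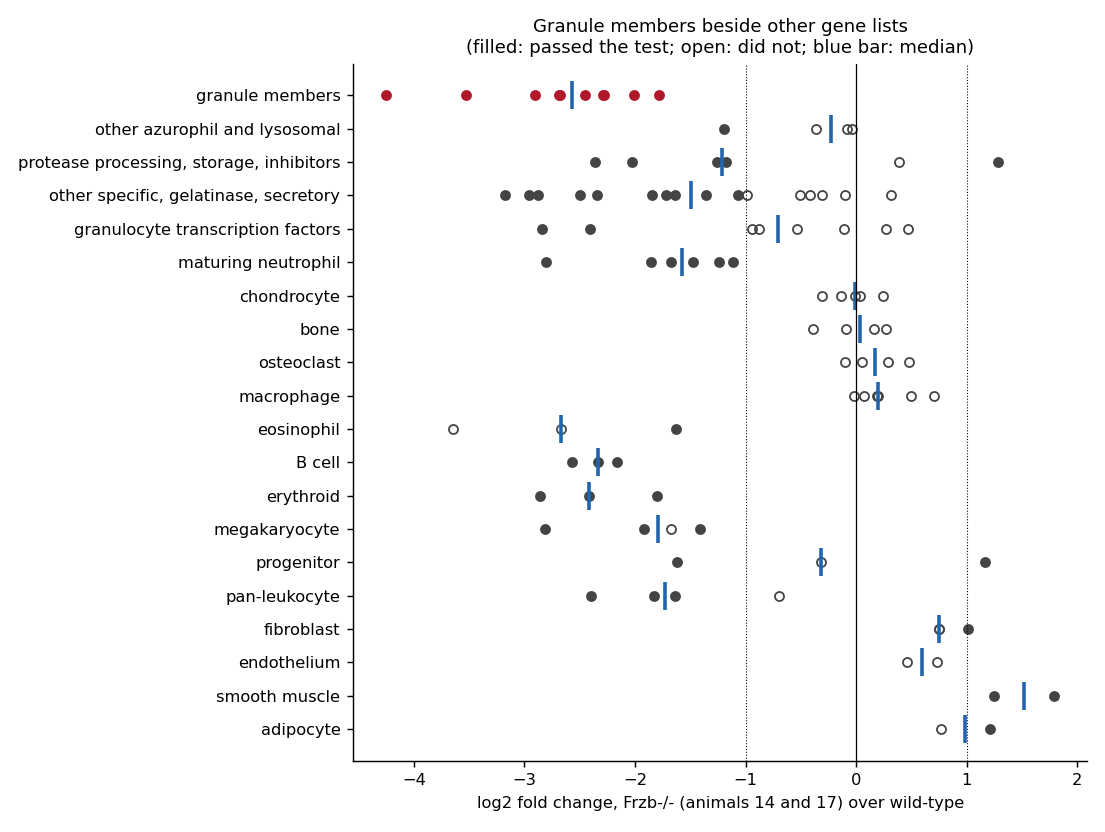
Log2 fold change of Frzb-/- (animals 14 and 17) over wild-type for the granule members (red) and for the genes of the other lists, 1 point per gene, filled where limma called it and open where it did not, with the list median as a blue bar. The members lie between -4.25 and -1.78, and the chondrocyte, bone, osteoclast and macrophage lists hold 0 called genes.

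Markers of the cells that the tissue block also holds moved in part with the granule genes. Genes of cartilage, bone, osteoclasts and macrophages were not called: 0 of 5 chondrocyte genes (median -0.01), 0 of 4 bone genes (0.03), 0 of 4 osteoclast genes (0.17) and 0 of 6 macrophage genes (0.19). Col2a1, the main collagen of cartilage, was at 14.70 and 14.69 in Frzb-/- mice, against 14.56, 14.75 and 14.70 in wild-type mice. This gene was thus high in each of these arrays, and it does not tell articular cartilage from growth plate. Chondrocyte genes had log2 fold changes of -0.31 (Cnmd) to 0.24 (Comp), bone genes of -0.39 (Dmp1) to 0.27 (Col1a1), with Ibsp at 0.16, and osteoclast genes of -0.10 (Mmp9) to 0.48 (Calcr), with Ctsk at 0.29 and Acp5 at 0.05. In macrophages, which like neutrophils are myeloid cells, C1qa passed the p threshold and not the fold (0.71, adjusted p = 0.00737), C1qb was at 0.49 and Csf1r at 0.19. Genes of several other blood cell lineages were lower. B cell genes were lower in 3 of 3 (Ms4a1, Cd79a and Cd79b, median -2.33), erythroid genes in 3 of 3 (Klf1, Alas2 and Epor, median -2.42), megakaryocyte genes in 3 of 4 (Ppbp, Gp9 and Pf4, median -1.80) and genes of all leukocytes in 3 of 4 (Coro1a, Ptprc and Itgb2, median -1.73, with Laptm5 at -0.69 not called). The log2 of the summed level was 12.62 and 12.13 in Frzb-/- mice, against 13.55 to 14.09 in wild-type mice, for the genes of all leukocytes, 8.73 and 8.82, against 10.90 to 11.20, for B cells, 10.51 and 10.42, against 12.70 to 13.16, for the erythroid genes, and 12.44 and 11.33, against 13.75 to 14.10, for the megakaryocyte genes. Without animal 17 these counts were 3 of 3, 2 of 3, 2 of 4 and 0 of 4, and without wild-type mouse 8-1 they were 2 of 3, 3 of 3, 1 of 4 and 1 of 4 in the same order, and the megakaryocyte count was 1 of 4 without wild-type mouse 6-1 or 9-1 as well.

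Of 3 eosinophil genes 1 was called, Siglecf (-1.63, and 0 of 3 without any one of animals 14 and 17 and wild-type mice 8-1 and 9-1, 3 of 3 without 6-1). Prg2, the major basic protein of eosinophil granules, was at 5.36 and 7.05 in Frzb-/- mice, against 7.67, 10.97 and 10.91 in wild-type mice (-3.65, adjusted p = 0.0394), and Epx, the eosinophil peroxidase, at 5.38 and 5.61, against 6.01, 9.35 and 9.15 (-2.67, adjusted p = 0.0762). Wild-type mouse 6-1, the lowest of its group in the neutrophil granule genes, was far lower than the other wild-type mice in both, and the log2 of the summed eosinophil level was 6.62 and 7.62 in Frzb-/- mice, against 8.23 to 11.41 in wild-type mice. Of 3 progenitor genes Kit was lower (-1.62) and Cd34, which vessels and fibroblasts also express, higher (1.17), and both calls were lost without animal 17, that of Cd34 also without animal 14 or wild-type mouse 8-1. Genes of connective tissue were higher in part: Lum of 3 fibroblast genes (1.01), Acta2 and Myh11 of 2 smooth muscle genes (1.24 and 1.79), Adipoq of 2 adipocyte genes (1.21) and 0 of 2 endothelial genes (median 0.60), where 0 of these were called without animal 17, and the smooth muscle genes alone without animal 14 or wild-type mouse 8-1 or 9-1. Those not called had log2 fold changes of 0.75 (Pdgfra and Dcn), 0.73 (Pecam1), 0.46 (Cdh5) and 0.76 (Fabp4) by their brightest probe sets. Of the 3 probe sets of Pdgfra, however, 1 dimmer one was called higher. In the log2 of the summed level, fibroblast genes stood at 14.97 and 15.02 in Frzb-/- mice, against 14.00 to 14.24 in wild-type mice, smooth muscle genes at 12.76 and 12.94, against 11.43 to 11.62, and adipocyte genes at 13.86 and 13.80, against 12.66 to 13.21. RMA values have no 0, so no marker could be read as absent. How much of the granule gene result goes with the share of marrow in the dissected piece was not tested.

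The 6 arrays also gave the genes whose pattern was most like that of the members. Each gene was centred on its wild-type mean and compared with the median of the members centred likewise, which stood at -2.20, -2.85, -0.21, -0.29, 0.17 and 0.14 in animals 14, 17, 6, 6-1, 8-1 and 9-1. By the largest absolute gap over the 6 arrays, the nearest genes outside the members were Ms4a3, a membrane protein of granulocyte and monocyte progenitors (gap 0.149), Trem3, a receptor of mouse myeloid cells (0.154), Spib, an ETS factor of B cells and plasmacytoid dendritic cells (0.159), Nkg7 of cytotoxic lymphocytes (0.166) and Ighm, the heavy chain of immunoglobulin M (0.206). The members themselves had gaps of 0.191 (Elane and Ctsg) to 1.81 (Olfm4). Elane and Ctsg were thus no nearer to the median pattern of the members than 4 of these 5 genes. The 5 were taken as the nearest of all genes outside the members, so their small gaps follow from that choice.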

How the data were processed

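RNA of 6 knee joints was measured on 6 arrays, 1 per mouse. The authors left out control probe sets and those called absent, and computed log2 expression values by RMA (affy 1.20.0 per the processing notes). These deposited log2 values were used unchanged. RMA normalizes by quantiles, so values are relative within an array (median over all probe sets 7.32 to 7.45). Genes came from the array annotation, and 677 probe sets with several genes and 4851 with none named no gene.

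Frzb-/- animals 14 and 17 were compared with 3 wild-type mice over all 30618 probe sets by the moderated, two-sided test of limma (version 3.58.1, R 4.3.3), with Benjamini-Hochberg adjustment. A call needed an absolute log2 fold change above 1 at an adjusted p under 0.01, the study's thresholds. Animal 6, fitted as a separate group, adds no residual degree of freedom. P-values set a group difference against the spread between these mice, which limma moderates with the spread over all probe sets. The number of mice limits the precision.

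The members, gene lists and rules were chosen with earlier results of these data known. Named are all members, Frzb, and per list the 2 genes with the largest change and the 2 brightest, the 5 genes most like the members and the genome neighbours. Serpinb1a, Serpina3n, Siglecf, Epor, Itgb2, Spi1, Cebpd, Klf5, Runx1 and Cebpa were named after their values were seen. A gene of a list was read by its brightest probe set, and list counts are descriptions. Mmp9 and Itgb2 each stand in more than 1 list, by the same probe set. In data simulated for 2 against 3 arrays, 81.2% of 1000 probe sets shifted by -1.5 and 95.1% of 1000 shifted by -2.5 were called, with 4 false calls among 28618. Noise was drawn for each probe set on its own, so shifts that probe sets share within a mouse were left out. These rates need not hold for the measured arrays. Tables and figures used Python 3.11.15, numpy 2.4.6, pandas 2.3.3 and matplotlib 3.10.9. Alternatives were cyclic loess, a filter on dim probe sets, trended and robust moderation, no moderation, array weights, averaged probe sets per gene, a looser threshold, the fit with all 3 labelled mice, and fits that left out 1 mouse.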

Additional observations from a re-analysis of the deposited data

How the results depend on the processing

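Over 129 refitted fold changes of single members, 129 kept their direction, 102 were still called and 0 reversed. The kind of moderation, the filter on dim probe sets and animal 6 as a separate group leave a fold change as it is. So does averaging, since each member has 1 probe set. Directions could therefore not reverse under these settings. All 10 members were called after cyclic loess, with trended and robust moderation, with array weights and with averaged probe sets per gene. They were also called at adjusted p under 0.05 with no minimum fold and with animal 6 as a separate group, but the main fit fixed both outcomes. Among probe sets above the median 9 of 9 were called, which leaves out Olfm4. With all 3 labelled mice 0 members and 0 of the 40 other neutrophil genes were called (10 and 18 at an unadjusted p under 0.05), and the medians were -1.66 for azurophil and -1.94 for specific or gelatinase genes. Without moderation of the spread 0 members (adjusted p 0.060 to 0.080) and 0 of the other 40 were called (10 and 29 at unadjusted p under 0.05). Leaving out 1 mouse at a time gave 4 (without animal 17) to 10 members, azurophil medians of -2.84 (without animal 14) to -1.95 (without animal 17), specific or gelatinase medians of -3.06 to -2.67, and 5 (without animal 17) to 23 of the other 40 genes, against 23 with all arrays, with 14 without animal 14 and 8 without wild-type mouse 8-1. Without animal 14 or 17 the remaining Frzb-/- mouse is assumed to vary like the wild-type mice. Cyclic loess moved the median of all probe sets from 0.017 to 0.000605. No paired analysis was possible because the labels give animal numbers that the groups do not share.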

Other observations

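The genes next to the members on their chromosomes were mostly not lower. In the RefSeq gene order Elane and Prtn3 are each other's neighbours. Of the 20 neighbours, 12 were other genes with a probe set, with a median log2 fold change of 0.04, and of these 3 were called lower and 1 higher, where by the brightest probe set 6.02% of all genes were called lower and 3.03% higher. Mcpt8, a protease of basophils that lies beside Ctsg in a cluster of granule proteases, averaged 6.21 in Frzb-/- and 8.70 in wild-type mice (-2.49, adjusted p = 0.00104). Gzme, a granzyme on the other side of Ctsg, was not called (0.64, adjusted p = 0.117). Tspoap1 beside Mpo (-1.77, adjusted p = 0.00967) and Cdc25a, a phosphatase of the cell cycle, beside Camp (-1.04, adjusted p = 0.00233) were lower as well. Pcdh17, a protocadherin beside Olfm4, was higher, at 7.63 in Frzb-/- and 6.37 in wild-type mice (1.27, adjusted p = 0.00164). The remaining neighbours, Ccrl2, 1110008P14Rik, Ptges2, Nme6, Ptpn23, Klhl18 and Pcdh8, had log2 fold changes of -0.34 (Ccrl2) to 0.30 (Ptges2) and were not called.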
